A study of Mus musculus with 10 samples.

Results

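Immediate early genes are transcribed within minutes of a stimulus without new protein synthesis, and 8 of them were followed here: Fos, Fosb, Jun, Junb and Jund of the AP-1 family, Egr1 and Egr2 of the EGR family, and Ier2. They were taken by name from a count table of 52636 genes, with earlier results of these data known. All 8 were among the 15916 genes that passed the low-count filter.

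The libraries came from mouse leukaemia cells of a model called DIN, made by transducing fetal liver cells with 3 MSCV vectors. These carry DNMT3A R882H, which doxycycline represses, IDH2 R140Q and NRAS G12D, and the cells had grown in irradiated Ptprca recipients, been frozen when the mice were moribund and been transplanted again. All 4 groups carry all 3 vectors: day 14 off (doxycycline for 14 days, 4 libraries), day 14 on (normal chow and water, 2 libraries), day 5 off (doxycycline for 5 days, 2 libraries) and day 5 on (normal chow and water, 2 libraries). cKit+/CD11b- cells were sorted from marrow and spleen, and the labels say neither which organ nor which mouse a library came from, so a p-value measures only the spread between these libraries. No group had doxycycline without the regulated vector, so an effect of the drug and one of the lost mutant cannot be told apart.

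AP-1 is a dimer of a FOS protein with a JUN protein, or of JUN proteins with each other, and it binds TGACTCA and related letters. The FOS, JUN, EGR and IER2 genes are switched on by serum response factor and its ETS partners at CArG boxes, by CREB or ATF at cAMP elements and, for Jun, by JUN and ATF2 at an AP-1-like element. RAS proteins such as NRAS act on these factors through the RAF, MEK and ERK kinases, and in blood cells Egr1 and the JUN genes are known for roles in stem cell quiescence and myeloid differentiation.

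The letters just before the transcription start are shown for 5 members that have a match to a motif searched, in RefSeq coordinates of GRCm38.p6. Of these stretches only that of Egr2 holds a CArG box, and none holds TGACTCA or the full cAMP element TGACGTCA. Each stretch is the 140 bases that end at the base before the start, 5′ to 3′ on the gene's own strand, with matches in capitals. They lie at chr12:85473750-85473889 (+) for Fos, chr7:19310046-19310185 (-) for Fosb, chr4:95052223-95052362 (-) for Jun, chr8:84978749-84978888 (-) for Junb and chr10:67537729-67537868 (+) for Egr2.
Fos: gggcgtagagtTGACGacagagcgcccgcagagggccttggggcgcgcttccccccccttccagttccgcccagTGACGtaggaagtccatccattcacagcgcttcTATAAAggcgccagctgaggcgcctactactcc
Fosb: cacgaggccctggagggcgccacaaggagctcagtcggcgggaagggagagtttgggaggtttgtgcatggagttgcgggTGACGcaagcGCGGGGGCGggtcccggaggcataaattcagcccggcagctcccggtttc
Jun: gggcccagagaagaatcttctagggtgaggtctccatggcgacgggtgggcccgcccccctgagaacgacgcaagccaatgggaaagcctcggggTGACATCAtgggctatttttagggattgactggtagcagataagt
Junb: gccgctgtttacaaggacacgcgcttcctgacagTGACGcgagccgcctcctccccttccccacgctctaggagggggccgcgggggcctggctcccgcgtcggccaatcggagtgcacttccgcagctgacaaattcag
Egr2: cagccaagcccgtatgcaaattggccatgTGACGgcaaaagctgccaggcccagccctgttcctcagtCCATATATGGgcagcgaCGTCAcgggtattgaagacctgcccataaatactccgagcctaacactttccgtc
Capitals mark TGACG (the first letters of the cAMP element) in Fos, Fosb, Junb and Egr2, where the second one is read on the other strand as CGTCA. In Fos they also mark TATAAA, in Fosb the EGR site GCGNGGGCG, in Jun the AP-1-like TGACATCA and in Egr2 a CArG box.

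The motifs were searched on both strands in windows of 300 bases, from 250 before to 50 after the start. Of the 8 members, 6 had a window that was searched, and Egr1 and Ier2 had none. Member windows on chromosome 18, where Egr1 lies, were left out of the search. Positions count from 0 at the start and are negative before it. Fos held TGACG from positions -129 and -66 and TATAAA from position -33. Jun held TGACATCA from position -45, and Fosb held TGACG from -60 and the EGR site from -50. Junb held TGACG from -106 and TATAAA from 0, at the annotated start itself and so outside the printed stretch. Egr2 had 5 windows, for different annotated starts, of which 4 held a CArG box and 3 held TGACG. In the window printed here the CArG box began at -72 and TGACG at -111 and -55. Of 32851 windows of all genes, 1.63% held a CArG box, 20.8% TGACG, 1.79% the full cAMP element TGACGTCA, 5.2% the AP-1 element TGACTCA, 5.55% the EGR site, 3.62% TGACATCA and 13.6% TATAAA. Since TGACG lies inside TGACGTCA, the first share includes the second. The Jund window held none of these motifs. A match is a description of these letters, not a binding site.

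Most members rose from day 5 to day 14 when the vector states were averaged, while Egr1 was the 1 of 8 called in each state on its own. In that average, a comparison added after the data were seen, 6 of the 8 rose (Fos, Fosb, Junb, Jund, Egr1 and Ier2), against 7.72% of all tested genes called higher. Their log2 changes ran from 0.67 to 2.67, and the calls of all but Ier2 held in all 17 alternatives. Jun and Egr2 had positive values that did not pass. With 5 members, Fos, Fosb, Junb, Jund and Egr1, all 6 day 14 libraries lay above all 4 day 5 libraries, an order that 3.99% of tested genes showed. In the off state, day 14 and day 5 differ in time after transplant as well as in time of doxycycline, and these cannot be told apart. The on groups had no doxycycline at either day. All 8 members had a positive change there, of which 3 were called, where 0.968% of tested genes were called higher. With only the on libraries fitted, 0 members were called. The labels give no date of collection, so time and a batch of collection cannot be told apart in either state.

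Egr1, a zinc finger factor that binds GC-rich sites, showed the widest step between days. Its CPM (counts scaled to a common library total by TMM) at day 14 were 74.3, 76.7, 142 and 53.7 in the off libraries and 120.4 and 87.2 in the on libraries. At day 5 they were 12.2 and 12.9 in the off libraries and 11.9 and 23.2 in the on libraries. The lowest day 14 library, off replicate 4, was above the highest day 5 library, on replicate 2, and at day 14 the off and on libraries overlapped. The log2 change from day 5 to day 14 was 2.55 ± 0.45 with the mutant on (SE, edgeR adjusted p = 0.0327) and 2.79 ± 0.43 with it off (adjusted p = 0.0034). Its mean over both states was 2.67 ± 0.31 (adjusted p = 0.00319), a 6.37-fold rise with a 95% interval of 1.98 to 3.36 on the log2 scale.

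Egr2, the paralogue with roles in myeloid and lymphoid cells, was close to the detection limit. Its counts were 8 to 31 reads per library, or 0.75 to 2.80 CPM. The day 14 on libraries had 1.66 and 2.80 CPM and the day 5 on libraries 0.90 and 0.75 CPM, without overlap. In the off libraries it was 2.20, 1.97, 0.96 and 1.03 CPM at day 14 and 1.13 and 1.05 CPM at day 5, which overlap. Its mean log2 change with day was 0.97 ± 0.36 (edgeR adjusted p = 0.0978).

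Fos, the partner that cannot form a dimer with itself, had 468, 279, 432 and 225 CPM in the day 14 off libraries and 418 and 287 CPM in the day 14 on libraries. At day 5 it had 207 and 132 CPM off and 104 and 66.7 CPM on. The day 5 off libraries lay between the day 5 on libraries and all day 14 libraries, while off and on overlapped at day 14. With the mutant on, Fos rose by a log2 change of 2.05 ± 0.39 (edgeR adjusted p = 0.0388). With it off the change was 1.05 ± 0.34 (adjusted p = 0.0619), and the mean over both states was 1.55 ± 0.26 (adjusted p = 0.0071).

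Fosb, a close relative of Fos whose product has a long-lived splice form known from neurons, was at 188, 119.5, 195 and 126 CPM in the day 14 off libraries. The day 14 on libraries had 64.7 and 63.5 CPM, the day 5 off libraries 60.6 and 51.2 CPM and the day 5 on libraries 37.8 and 24.0 CPM. All 4 day 14 off libraries stood above the other 6 libraries. From day 5 to day 14 Fosb rose with the mutant off, by a log2 change of 1.49 ± 0.25 (edgeR adjusted p = 0.00416), and had 1.06 ± 0.28 with it on (adjusted p = 0.0700).

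Jun, which forms dimers both with FOS proteins and with itself, moved least with day. Its day 14 off libraries had 767, 519.9, 659 and 480.5 CPM and its day 14 on libraries 394 and 463 CPM. The day 5 off libraries had 461 and 483 CPM and the day 5 on libraries 336 and 264 CPM. The 2 day 5 off libraries and the lowest day 14 off library overlapped, whereas the day 14 on libraries were both above the day 5 on libraries. Its mean log2 change with day was 0.44 ± 0.15 (edgeR adjusted p = 0.0697), with a 95% interval of 0.12 to 0.76.

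Junb, a JUN protein that restrains myeloid proliferation in mice, had 96.6, 74.1, 86.1 and 68.6 CPM at day 14 off and 100.2 and 78.3 CPM at day 14 on. At day 5 it had 48.4 and 45.6 CPM off and 68.0 and 46.7 CPM on. The gap between days was narrow, since day 14 off replicate 4 at 68.6 CPM was just above day 5 on replicate 1 at 68.0 CPM. Junb rose by a mean log2 change of 0.72 ± 0.15 (edgeR adjusted p = 0.0132). Its exons share 173 bases, on chromosome 8, with the 3′ end of Prdx2, a peroxiredoxin gene on the opposite strand. Prdx2 had 1.51 to 7.39 times the reads of Junb, and whether the authors counted by strand is not given in the sources used here, so reads in the overlap cannot be told apart. The mean log2 change of Prdx2 with day was 0.15 ± 0.15 (adjusted p = 0.52), and at day 14 it was 1.22 ± 0.21 higher off than on (adjusted p = 0.00146).

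Jund, the JUN protein least dependent on stimulation in most cells, had 96.7, 66.7, 121 and 67.5 CPM at day 14 off and 129.9 and 97.7 CPM at day 14 on. Its day 5 libraries had 53.6 and 49.2 CPM off and 39.5 and 45.0 CPM on, all below day 14. It rose with the mutant on, by a log2 change of 1.43 ± 0.28 (edgeR adjusted p = 0.0385), and had 0.78 ± 0.25 with it off (adjusted p = 0.0528). Its single exon shares 877 bases with the antisense gene Gm11175, which had 4 to 30 reads per library against 352 to 1764 for Jund. Jun likewise shares 232 bases with the antisense gene Junos, which had 10 to 41 reads against 2993 to 9587 for Jun.

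Ier2, a nuclear protein encoded by a gene of 1 exon, had 53.3, 42.6, 63.3 and 41.1 CPM at day 14 off and 66.9 and 64.9 CPM at day 14 on. At day 5 it had 36.3 and 33.3 CPM off and 28.7 and 46.0 CPM on. The day 5 on library of replicate 2 was above 2 of the day 14 off libraries. The mean log2 change with day was 0.67 ± 0.17 (edgeR adjusted p = 0.0265), and this call was lost without any 1 of 6 libraries: day 14 off replicate 1, either day 14 on library, either day 5 off library or day 5 on replicate 1 (adjusted p = 0.0561 to 0.0862).

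**Figure D1:**
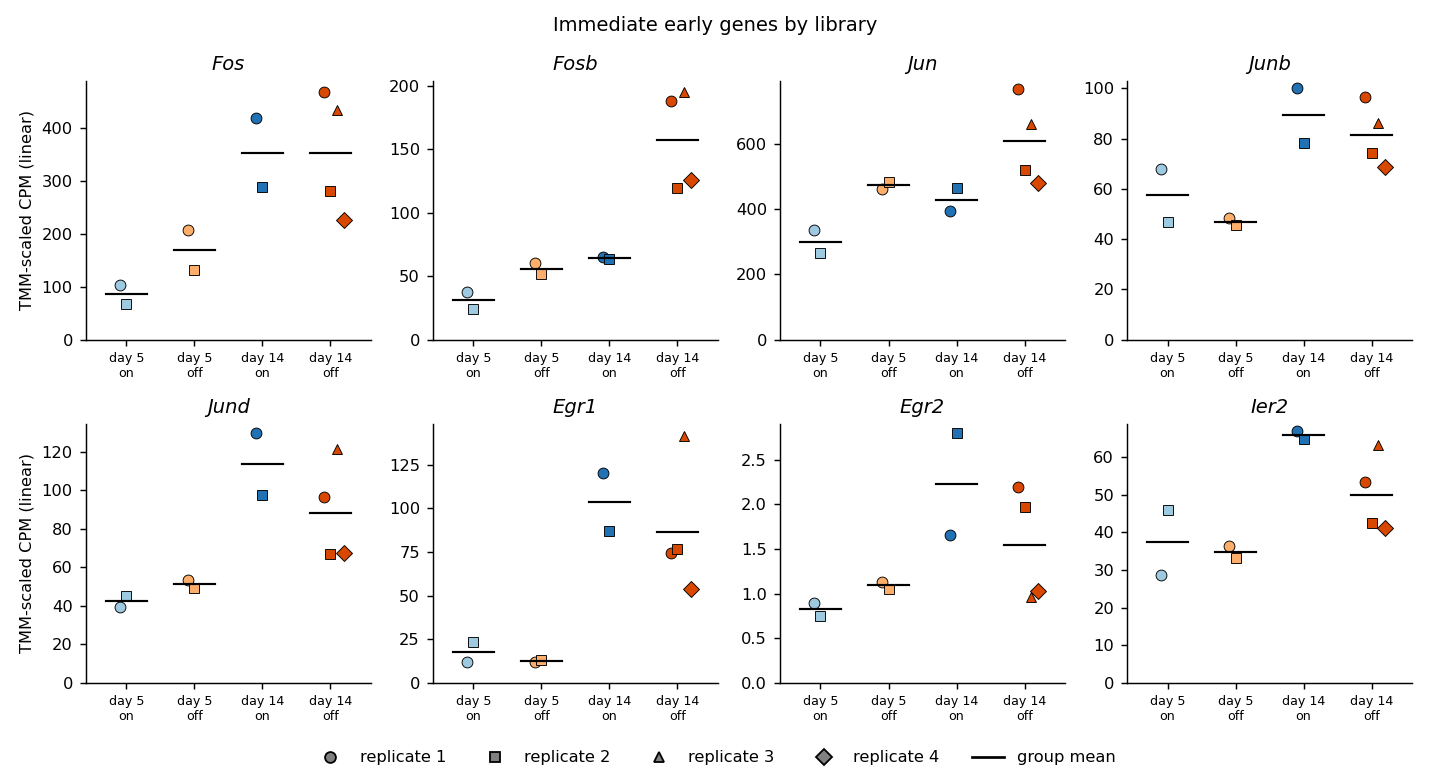
TMM-scaled CPM of the 8 genes (linear axes from 0) in each of the 10 libraries, with the group by day and vector state on the x axis, marker shape for replicate number and a bar at the group mean. Egr1 lies between 11.9 and 23.2 CPM at day 5 and between 53.7 and 142 CPM at day 14, and the 4 day 14 off libraries of Fosb stand above all others.

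Within a single vector state the groups are smaller and fewer calls were made. With the mutant on, 3 of 8 members rose from day 5 to day 14 (Fos, Jund and Egr1), where 0.968% of tested genes were called higher. All 8 had on libraries that did not overlap between days, the day 14 libraries higher, as did 20.6% of tested genes. With the mutant off, 3 of 8 rose (Fosb, Junb and Egr1), where 10.1% of tested genes were called higher, and 6 of 8 did not overlap, against 24.2% of tested genes. All 8 members had a positive change in both states, against 27.5% of tested genes. The Fos, Jund and Egr1 calls in the on state rest on 2 libraries against 2. None of the 3 was called without day 14 on replicate 1 (adjusted p = 0.2, 0.209 and 0.172), without day 14 on replicate 2 (0.0668, 0.0641 and 0.0602), without day 5 on replicate 1 (0.0618, 0.101 and 0.0835) or with only these 4 libraries fitted (0.408 for each). Leaving out day 14 off replicate 1 or replicate 2, which are in neither group compared, also ended all 3 calls (0.0501 to 0.078), day 14 off replicate 4 those of Fos and Jund (0.0508 and 0.0661), day 5 off replicate 2 those of Jund and Egr1 (0.0537 and 0.0501), and day 5 on replicate 2 that of Fos (0.0707). Junb in the off state was not called without day 14 off replicate 1 (0.0513) or without either day 5 off library (0.119 and 0.114). The Egr1 and Fosb calls in the off state held in all 18 alternatives.

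The second question of the design was whether turning DNMT3A R882H off changed these genes at a given day. At day 14, Fosb was the 1 member of 8 that passed, where 31.8% of tested genes did. It averaged 157 ± 39.9 CPM with the mutant off (SD, n = 4) against 64.1 ± 0.84 CPM with it on (SD, n = 2). That is a log2 change of 1.29 ± 0.25 (SE, edgeR adjusted p = 0.0032) or 2.45-fold, with a 95% interval of 0.74 to 1.85. All 4 off libraries were above both on libraries. This call held in all 18 alternatives, with adjusted p up to 0.0282.

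Jun averaged 607 ± 131 CPM off (SD, n = 4) against 429 ± 48.4 CPM on (SD, n = 2) at day 14. The groups did not overlap, but the log2 change of 0.50 ± 0.19 missed the threshold (edgeR adjusted p = 0.0709). Alternatives in which it passed include those without the low-count filter (adjusted p = 0.0302) and without day 14 off replicate 4 (adjusted p = 0.0463). Ier2 was the reverse case, at 50.1 ± 10.4 CPM off (SD, n = 4) against 65.9 ± 1.42 CPM on (SD, n = 2), with both on libraries above all off libraries. Its log2 change of -0.39 ± 0.21 did not pass (adjusted p = 0.179). Non-overlap in the higher direction was found in 27.9% of tested genes and in the lower direction in 24.5%.

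For the other members the day 14 off and on libraries overlapped. Fos averaged 351 ± 117 CPM off (SD, n = 4) against 353 ± 92.7 CPM on (SD, n = 2). Its log2 change was -0.01 ± 0.33 (edgeR adjusted p = 0.99), and the 95% interval of -0.73 to 0.72 leaves room for a change of either sign. The log2 changes were -0.13 ± 0.19 for Junb, -0.37 ± 0.23 for Jund, -0.26 ± 0.36 for Egr1 and -0.53 ± 0.43 for Egr2 (adjusted p = 0.256 to 0.623). Jund passed in 1 of the 18 alternatives, without day 14 off replicate 3 (adjusted p = 0.046).

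At day 5, 0 of 8 members were called by edgeR, with 3 at an unadjusted p under 0.05, and 0 by DESeq2 or limma voom. Of all tested genes 0.484% were called. Those 3 were Fos at a log2 change of 0.99 ± 0.38, Fosb at 0.86 ± 0.28 and Jun at 0.65 ± 0.22 (edgeR adjusted p = 0.277, 0.204 and 0.21). Both off libraries of each of these genes were above both on libraries, as they were for Jund and Egr2, an order shown by 19.3% of tested genes. Without the low-count filter Fos, Fosb and Jun were called at day 5. A model with all 4 groups gave no member whose off-over-on change differed between the days: 0 of 8 by edgeR, DESeq2 or limma voom, and 0 at an unadjusted p under 0.05, where 3.06% of tested genes were called by edgeR. The value farthest from 0 was that of Fos, at -0.998 ± 0.499 (adjusted p = 0.261). Among the alternatives in which Fos passed here was the fit without the low-count filter (adjusted p = 0.0029). The 4 comparisons share libraries in pairs, so their values are not independent of each other.

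Averaged over both days, a comparison also added after the data were seen, Fosb was higher off than on by a log2 change of 1.08 ± 0.19 (edgeR adjusted p = 0.00254) and Jun by 0.58 ± 0.15 (adjusted p = 0.0158). These were 2 of 8 members, where 12.9% of tested genes were called higher. The Jun call was lost without day 14 on replicate 1 (0.057) or day 5 off replicate 2 (0.0534).

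**Figure D2:**
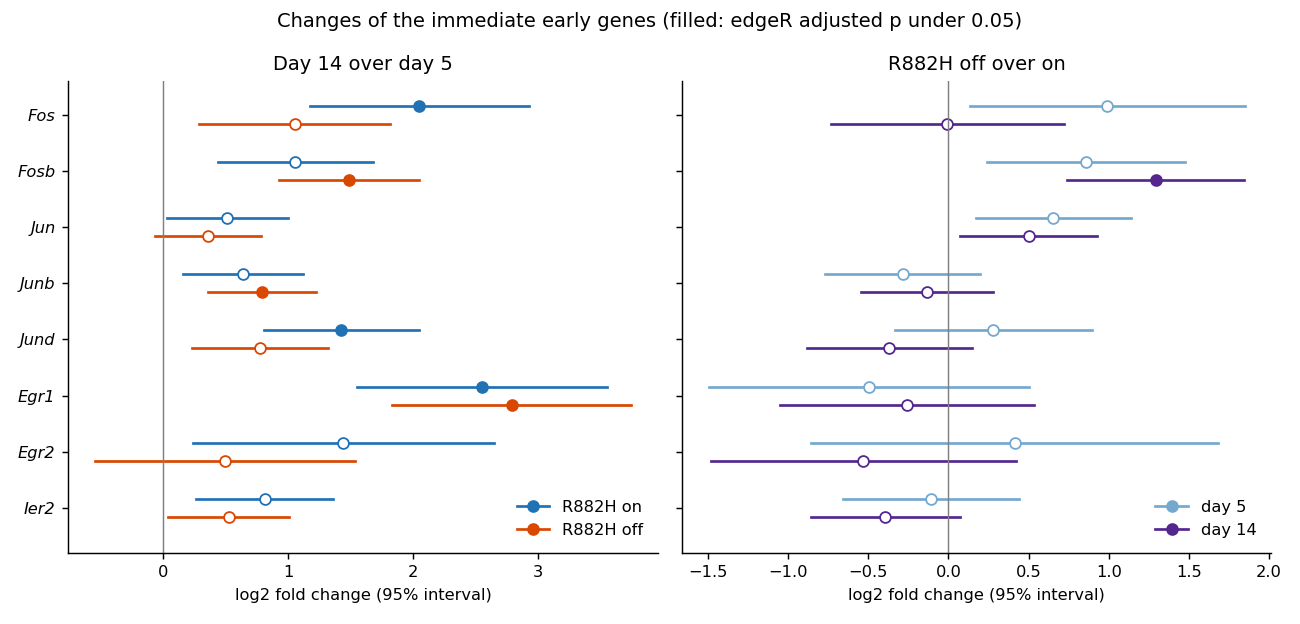
Log2 fold changes of the 8 genes with 95% intervals from the edgeR fit (x axis), for day 14 over day 5 in each vector state (left) and for mutant off over on at each day (right). Filled points have an adjusted p under 0.05: all points of the left panel lie above 0, and in the right panel only Fosb at day 14 is filled.

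Libraries of 1 group differed among themselves, and in the day 14 off group most members did so together. In the day 14 off group, replicates 1 and 3 were above replicates 2 and 4 for Fos, Fosb, Jun, Junb, Jund and Ier2, whereas for Egr1 replicate 2 was above replicate 1 and for Egr2 replicate 3 was lowest. The highest library exceeded the lowest by 2.08 times for Fos, 2.64 times for Egr1 and 1.41 times for Junb in that group. The share of all genes with such an order was not counted. In the day 5 on group the members were split. There Fos, Fosb, Jun, Junb and Egr2 were higher in replicate 1, and Jund, Egr1 and Ier2 in replicate 2. Over the 10 libraries, which share groups and days, log2 CPM correlated at r = 0.90 between Fos and Jund, 0.92 between Fosb and Jun and 0.91 between Egr1 and Jund. Jun and Ier2 had r = 0.31, the lowest of all pairs. These correlations are descriptions of 10 libraries that hold only 4 groups.

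The genes whose log2 CPM followed a member most closely over the 10 libraries were searched among 8342 annotated genes whose log2 CPM averaged at least 3. Fos was nearest to Ppp1r15b (r = 0.96), Nfkbiz (0.95) and Zfp36l1 (0.94), and 0.252% of the genes searched had an r over 0.9 with it. Egr1 was nearest to Cnnm3 (0.99), Alg1 (0.98) and Rela (0.97), with 1.29% over 0.9. Fosb was nearest to Eif2b2, Ints3 and Lmna (0.97 each, with 1.44% over 0.9). Jun was nearest to Hnrnph2 (0.94), Aco1 (0.92) and Gtf2h1 (0.92), and Junb to Mroh1 (0.97), Chrnb2 (0.94) and Gsk3b (0.91). Jund was nearest to Ext1 (0.96), Dusp1 (0.96) and Plod3 (0.95), Ier2 to Ttyh3 (0.97), Txnip (0.96) and Ctdsp2 (0.96), and Egr2 to Ldb1 (0.92), Cdk17 (0.91) and Usp38 (0.89).

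Other immediate early genes were examined as a list of 36, of which 33 were tested. Over both vector states 10 of them rose from day 5 to day 14, where 7.72% of tested genes did. Without any 1 library 7 to 13 were called in either direction. The median log2 change of the 33 was 0.69, against -0.02 over all tested genes. The 10, named because they passed, included Dusp1, a phosphatase that inactivates MAP kinases, at 2.46 ± 0.48 (SE, edgeR adjusted p = 0.0131), and the clock gene Per1 at 2.40 ± 0.36 (adjusted p = 0.00481). Nr4a1, an orphan nuclear receptor, had 1.64 ± 0.34 and its relative Nr4a2 1.05 ± 0.24. Zfp36 and Zfp36l1, which bind AU-rich mRNAs and speed their decay, had 1.06 ± 0.19 and 0.75 ± 0.11. The other 4 were the factor Klf4, the antiproliferative gene Btg1, the pseudokinase gene Trib1 and the stress gene Gadd45a, with log2 changes of 1.47, 0.98, 0.96 and 1.01. DESeq2 called 16 of the list higher and 1 lower in this comparison, and 19 passed in either direction without the low-count filter.

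**Figure D3:**
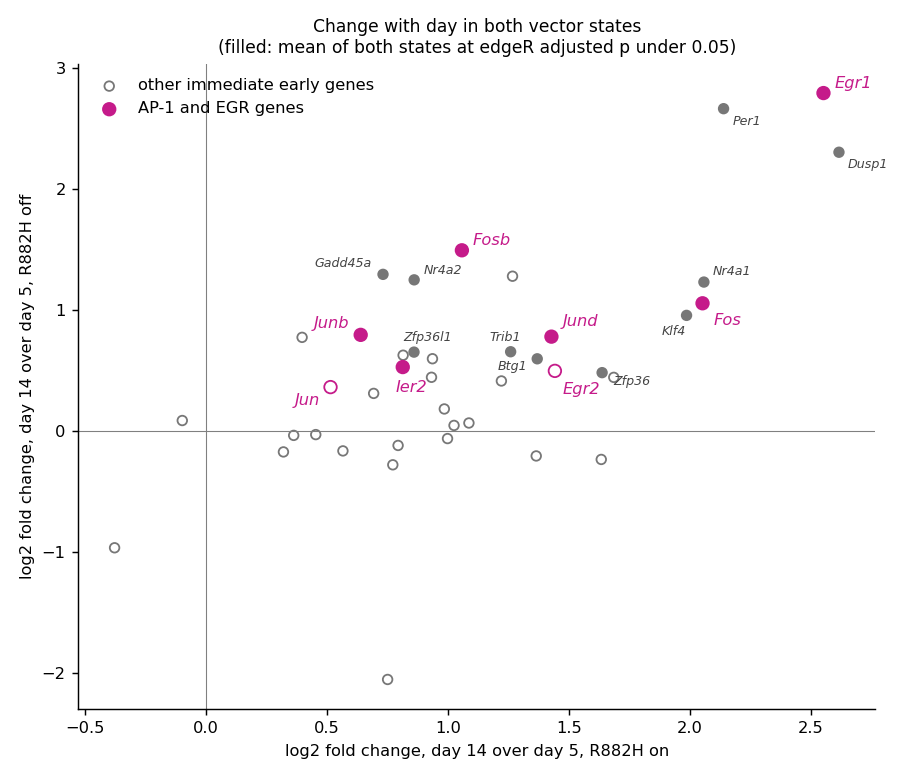
Log2 fold change from day 5 to day 14 with the mutant on (x axis) and off (y axis) for the 8 genes (magenta) and the 33 tested other immediate early genes (grey). Filled points had an adjusted p under 0.05 for the mean of both states, and Egr1 lies at 2.55 on the x axis and 2.79 on the y axis.

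At day 14 the other immediate early genes differed between vector states in the direction opposite to Fosb more often than in its own. Of the 33 tested, 9 were lower with the mutant off and 1 was higher, where 14.9% and 16.9% of tested genes were, and their median log2 change was -0.57. Klf4 averaged 25.6 ± 4.06 CPM off (SD, n = 4) against 87.9 ± 49.98 CPM on (SD, n = 2), and its log2 change was -1.78 ± 0.29 (edgeR adjusted p = 0.00137). The kinase gene Sik1 had 18.5 ± 8.12 CPM off and 68.4 ± 16.9 CPM on, a log2 change of -1.88 ± 0.32 (adjusted p = 0.00182). The SRF and YAP target Ccn2 had -3.46 ± 0.68 (adjusted p = 0.00329) at a low level of 0.21 CPM off and 2.32 CPM on. A gene with no read could still stand at 0.206 to 0.282 CPM in the day 14 off libraries, so the size of this change is uncertain. Gadd45a was the higher gene, at 1.36 ± 0.28 (adjusted p = 0.00419). Without the low-count filter 18 of the list passed.

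Many genes of an SRF list and of a MAP kinase feedback list were called lower at day 14 with the mutant off. The SRF list holds SRF, the ternary complex factors and their coactivators, but also the CREB gene Creb1 and the CREB coactivator gene Crtc2. Creb1 is counted in the list of other AP-1 partners too. Of this list 6 of 8 were lower, where 14.9% of tested genes were, and 3 were called without day 14 on replicate 2. Elk3 had a log2 change of -1.90 ± 0.25 (edgeR adjusted p = 0.00035), Elk4 of -1.09 ± 0.14 (adjusted p = 0.000359), Elk1 of -0.84 ± 0.19 (adjusted p = 0.00701) and the CREB coactivator gene Crtc2 of -2.40 ± 0.58 (adjusted p = 0.0107). In the list of MAP kinase phosphatases and feedback genes, which also holds the ETS factor genes Etv4 and Etv5, 8 of 15 were lower. Without day 14 on replicate 2, 5 were called. The summed level of this list was 397 to 490.3 CPM in 3 of the day 14 off libraries, but 966 CPM in off replicate 3, above the 863 and 923 CPM of the on libraries. Etv4 fell by 3.62 ± 0.50 on the log2 scale (adjusted p = 0.000553), Dusp4 by 3.02 ± 0.51 (adjusted p = 0.00146), Etv5 by 1.83 ± 0.33 (adjusted p = 0.00242) and Dusp10 by 1.38 ± 0.20 (adjusted p = 0.00062).

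In the MAP kinase cascade the share of genes called at day 14 was near that of all tested genes, of which 16.9% were higher and 14.9% lower. Of its 19 genes, 3 were higher with the mutant off, among them Mapk9, which encodes the JUN kinase JNK2, at 0.85 ± 0.14 (SE, edgeR adjusted p = 0.00119). Another 3 were lower, among them Rps6ka1 and Rps6ka3, whose products RSK1 and RSK2 act downstream of ERK, at -1.33 ± 0.16 and -1.001 ± 0.143 (adjusted p = 0.000203 and 0.000562). Of the other AP-1 partners 1 of 15 tested was lower, Fosl2 at -1.13 ± 0.23 (adjusted p = 0.00434). Egr3, an EGR paralogue at 3.83 ± 1.03 CPM off (SD, n = 4) against 1.79 ± 0.11 CPM on (SD, n = 2), was the 1 of 3 tested EGR and NAB genes that was higher, at 1.09 ± 0.35 (adjusted p = 0.0349).

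With day, fewer genes of these lists were called. The SRF list had 0 of 8 called by edgeR for the mean of both states, with 3 at an unadjusted p under 0.05, 2 by DESeq2 and 0 by limma voom. Of the feedback list 2 of 15 rose, Spry1, an inhibitor of receptor signalling, at 2.86 ± 0.49 (SE, edgeR adjusted p = 0.0064) and Dusp1. Only 1 gene of the list was called without day 5 off replicate 2 or without day 5 on replicate 1. Of the MAP kinase cascade 4 of 19 rose, where 7.72% of tested genes did, among them Map2k2 at 0.61 ± 0.09 and Map2k3 at 0.51 ± 0.09 (adjusted p = 0.00461 and 0.00902).

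Cell dissociation and sorting can induce immediate early and heat shock genes, so 12 heat shock genes were read beside the members. Their summed level was 8944 to 11331 CPM at day 14 off, 5794 to 7052 CPM at day 14 on, 8994 to 9371 CPM at day 5 off and 7086 to 8086 CPM at day 5 on. The off and on ranges did not overlap at either day, the off libraries being higher. At day 5, 0 of 12 were called higher by edgeR, with 6 at an unadjusted p under 0.05, 4 by DESeq2 and 0 by limma voom. At day 14, 7 of 12 were higher with the mutant off (11 without day 14 off replicate 3), where 16.9% of tested genes were, among them Hsp90aa1 at a log2 change of 1.41 ± 0.19 and Hspd1 at 1.42 ± 0.20 (edgeR adjusted p = 0.000451 and 0.000462). The Fosb difference at day 14 was in the same direction, and the part of sample handling in it was not tested. With day, for the mean of both states, the list had 1 gene called lower, Dnaja1 at -0.52 ± 0.11 (edgeR adjusted p = 0.0142). Called higher were 0 by edgeR, DESeq2 or limma voom, and 0 at an unadjusted p under 0.05. The part of sample handling in the day change of the members was not tested either.

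Markers of other cells moved with the groups too. In a bulk sort, fewer cells of a type and less RNA per cell cannot be told apart. Of 9 erythroid markers, 7 were higher at day 14 with the mutant off, where 16.9% of tested genes were. Their summed level was 2928 to 3629 CPM off against 846 to 1613 CPM on, the side on which Fosb was higher. In the same comparison 4 of 8 tested monocyte markers were lower (Klf4, Itgam, Cd14 and Ly6c2), where 14.9% of tested genes were. That is the direction of the lower immediate early, SRF-list and feedback genes. Neutrophil markers went both ways, with 2 of 9 lower (S100a9 and Ngp) and Mmp9 higher. Of the other lists, 1 of 4 tested megakaryocyte and 1 of 4 tested T and NK markers were higher, and 1 and 2 of them lower, with 1 of 3 tested mast-cell markers lower. With day, for the mean of both states, 5 of 9 erythroid, 2 of 8 tested monocyte, 2 of 9 neutrophil and 2 of 4 tested megakaryocyte markers were higher, where 7.72% of tested genes were. Lower were 1 of 4 tested megakaryocyte, 1 of 2 tested B-cell and 1 of 3 tested mast-cell markers. Of all 15916 tested genes 2121 were called in this comparison, 57.9% of them higher. The summed monocyte level was 92.8 to 143 CPM at day 14 off, 112 to 245 CPM at day 14 on, 76.8 to 85.3 CPM at day 5 off and 48.8 to 145 CPM at day 5 on, and the neutrophil level 669 to 1082 CPM, 1045 to 1736 CPM, 481 to 524 CPM and 788 to 1574 CPM. Between days both ranges overlapped in the on state and did not in the off state, where day 14 was higher. Klf4 is counted in both the monocyte and the immediate early list. Cd3e, Cd4, Cd79a, Fcgr1, Gp1bb, Fcer1a and Cma1, defining markers of lymphoid, monocyte, megakaryocyte and mast cells, failed the low-count filter. The part of these cells in the member changes was not tested.

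Of the sort markers, Kit had 34.4 ± 2.52 CPM at day 14 off (SD, n = 4), 93.4 ± 6.48 CPM at day 14 on, 41.7 ± 2.16 CPM at day 5 off and 53.7 ± 3.54 CPM at day 5 on (SD, n = 2 each). Itgam, which encodes CD11b, had 3.15 ± 0.74, 15.3 ± 9.25, 8.89 ± 8.11 and 4.90 ± 2.59 CPM in the same order. The libraries held 9292644 to 14340624 counts, and a gene with no read could still stand at 0.206 CPM in the deepest and 0.337 CPM in the shallowest one (3 counts, counting error only). Reads of 3 ribosomal RNA locus genes took 7.78% to 16.5% of a library. That share was higher in both day 14 on libraries (13.3% and 15.0%) than in both day 5 on libraries (8.49% and 13.2%), while the off groups overlapped. Leaving those genes out gave the same call for every member except Jund in the off state, which then passed for day 14 over day 5 (adjusted p = 0.0478).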

How the data were processed

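The deposited table holds unnormalised read counts for each Ensembl ID, from QuantSeq 3′ mRNA libraries. Per the submitters' processing notes, the build was mm10 and the tools were HISAT2 2.0.4, cutadapt 1.14, bcl2fastq 2.17.1.14, Subread 2.0.0 with featureCounts, limma 3.48.3 and edgeR 3.34.0. How they were set, the strand rule included, is not given in the sources used here. Symbols and positions came from GENCODE M21 (52489 IDs matched, 147 did not), and promoters from RefSeq (GRCm38.p6).

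In R 4.3.3, edgeR 4.0.16 tested the counts with filterByExpr, TMM scaling, 1 mean per group over all 10 libraries, and a robust quasi-likelihood test. P-values were adjusted by Benjamini-Hochberg over all 15916 genes, with calls at 0.05. Log2 CPM used a prior count of 2. No set test was run. Members and lists were chosen with earlier results of these data known. From each list, up to 4 genes of smallest p at day 14 off over on and up to 2 in each other comparison could be named, with all called genes of the immediate early list for the day change. Alternatives were RLE scaling, 2 other filters, DESeq2 1.42.0, limma 3.58.1 voom, a replicate block, only the compared groups, each library left out, and, added after seeing the data, no ribosomal RNA locus genes. The edgeR steps were tested on simulated data.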

Additional observations from a re-analysis of the deposited data

How the results depend on the processing

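Of the member log2 changes under an alternative, 891 kept direction and side of the threshold, 34 lost the call, 33 gained it and 19 changed sign. Calls of members (genes) were, in the order day 14 off over on, day 5 off over on, on with day, off with day, and day dependence, 1 (5063), 0 (77), 3 (370), 3 (2706) and 0 (487), and 6 (2121) for the mean day change and 2 (3863) for mean off over on. Without the low-count filter members were 2, 3, 6, 5 and 1, and genes 992 at day 5, 1275 on with day and 1957 for day dependence. DESeq2 called 5 members each on and off with day, and 472, 1136 and 1327 genes in those same 3 comparisons. Limma voom called 0 genes at day 5. Fitting only the compared groups gave 0 genes at day 5 and 0 members and 0 genes on with day. Same-numbered libraries had deviations that correlated at r = 0.03 to 0.33, all positive. With fewer than 3 pairs in any comparison, whether the numbers pair the libraries cannot be told. The replicate block gave 2, 1, 5, 5 and 1 members, 225, 1014 and 1521 genes, called Jun at day 14 (adjusted p = 0.0472) and Fos at day 5 and in day dependence (0.0179 and 0.017), and turned Fos at day 14 off over on to 0.061 and Egr2 in mean off over on to 0.16. Leaving out 1 library gave 1 to 2, 0 to 0, 0 to 3, 2 to 5 and 0 to 0 members, then 5 to 6 and 1 to 2 for the means, and 2985 to 5738, 0 to 304, 0 to 680, 601 to 3409, 106 to 965, 893 to 2869 and 2405 to 3962 genes. It turned small uncalled values: Fos (-0.25 to 0.26) and Junb (-0.30 to 0.024) at day 14, Egr1 (-0.91 to 0.10) and Ier2 (-0.43 to 0.30) at day 5, Egr1 (-0.38 to 0.61) and Junb (-0.16 to 0.35) in day dependence, and Jund (-0.15 to 0.053) and Egr2 (-0.23 to 0.16) in mean off over on. The cause was not tested. Counts of 8 to 31 limit Egr2.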
